A study of Mus musculus with 3 samples.

Results

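Myeloid lineage transcription factors were followed in macrophages sorted from mouse kidney: Spi1, Cebpa, Cebpb, Runx1, Runx3, Zeb2, Id2, Id3, Ikzf1 and Tcf4. They were chosen by gene symbol as known regulators of blood and myeloid cell fate, and all 10 were found among the 14811 genes of the deposited table. The samples were 3 libraries from 3 C57BL/6J mice, all in the same group. The mice were given PBS, a buffered salt solution, by the intravenous route. After 1 h the kidneys were removed and digested with enzymes, and the macrophages were sorted by flow cytometry. The labels give neither the surface markers of the sort nor the age or sex of the animals, and no allele or further agent is named. With no second condition, the results are levels, their spread over mice, and ratios between factors within a library.

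Blood cell fate is set by transcription factors that act in combination and at graded levels. PU.1 (the product of Spi1), the C/EBP proteins and the RUNX proteins bind many of the same enhancers in myeloid cells and open them, and PU.1 is needed for macrophages to form at all. The E proteins, among them the product of Tcf4, bind E-box sequences as dimers, the ID proteins capture E proteins in dimers that cannot bind DNA, and ZEB2 represses genes through E-boxes. In the dendritic cell lineages, ZEB2 represses Id2, and ID2 opposes the product of Tcf4, and kidney macrophages lie close to dendritic cells in the genes they use.

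Reads over the listed genes numbered 50951549 in mouse 1, 56718534 in mouse 2 and 50646558 in mouse 3, and between 92.3% and 93.1% of the testable genes differed beyond counting noise between any pair of libraries. Macrophage markers marked the sorted cells as labelled: 9 of 10 reached 1000 normalised reads in every mouse, Itgam being the exception, and their summed level was 568915, 379006 and 505053. The libraries stood apart in kidney epithelium markers, whose summed level over 7 genes was 39823.5 in mouse 1, 193565 in mouse 2 and 15619 in mouse 3. Of these 7 genes, 6 were highest in mouse 2, Kap leading and Umod being the exception. The order of the factors and the results on Id3 are therefore also given without mouse 2. T cell markers, of which 4 of 6 were analysed, summed to between 0.806 and 4.23. Neutrophil markers, of which only 2 of 8 were analysed, summed to between 0 and 19.4, with S100a9 at 0 in every mouse. These sums therefore cover only part of each list. Among monocyte markers, 4 of 6 were analysed. Ly6c2 was at 1069, 2.77 and 0.705 in mice 1, 2 and 3, Plac8 at 465, 0 and 0, and Vcan at 0.806, 0 and 0. Ccr2, a chemokine receptor of monocytes that some kidney macrophages also carry, was at 29145, 8939 and 12215. Of the B cell markers, 2 of 6 were analysed: Cd79b was at 227, 3939.8 and 6359 and Ebf1 at 4.03, 337 and 0.705. Endothelial markers, of which 4 of 5 were analysed, summed to 529.9, 133 and 1384. In bulk samples, fewer cells of a type and less RNA per cell cannot be told apart.

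All 10 factors were detected in every mouse, where 71% of listed genes were. A level of 1000 or more normalised reads in every mouse was reached by 6 of 10 factors, Spi1, Id2, Zeb2, Runx1, Runx3 and Tcf4, where 14.7% of listed genes reached it. A level of 10 or more in every mouse was reached by 9 of 10, Id3 being the exception, where 44.4% of listed genes reached it. The median over the 10 factors of the mean level was 2535 normalised reads, and the median over all listed genes 254. Since the factors were picked for their known part in myeloid cells, these counts describe the set and test nothing. Together the 10 genes took 0.114%, 0.11% and 0.13% of the reads in mice 1, 2 and 3.

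Longer transcripts collect more reads, so the order of the factors was taken per kb of annotated exon. Id2 was highest at 3617 ± 1528 normalised reads per kb, followed by Spi1 at 2199 ± 311 and Zeb2 at 809.9 ± 420.4 (mean ± SD, n = 3 mice, here and below). Id3 came next at 436 ± 744, a mean carried by mouse 2, and then Runx3 at 364 ± 134, Runx1 at 349 ± 201 and Ikzf1 at 232 ± 144. Cebpa at 121 ± 56.0, Tcf4 at 119 ± 65.8 and Cebpb at 51.3 ± 27.9 had the lowest means, although Id3 was lowest of all in mice 1 and 3, at 4.50 and 8.26 per kb. Of the 9 neighbouring pairs in this order, 7 changed sides between mice, and the steps from Spi1 to Zeb2 and from Runx1 to Ikzf1 had the same direction in 3 of 3 mice. Without division by length Spi1 lay below Zeb2 in 3 of 3 mice, at log2 ratios of -1.77, -0.39 and -1.65. Without mouse 2, an alternative also chosen after seeing the data, Id2, Spi1 and Zeb2 kept ranks 1 to 3, Runx1 took rank 4 and Runx3 rank 5, and Id3 moved to rank 10, below Cebpb. Per kb of the longest annotated transcript, an alternative chosen after seeing the data, Id2, Spi1 and Zeb2 kept ranks 1, 2 and 3 and Cebpb rank 10, while Tcf4 moved to rank 7 and Runx1 to rank 4.

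**Figure D1:**
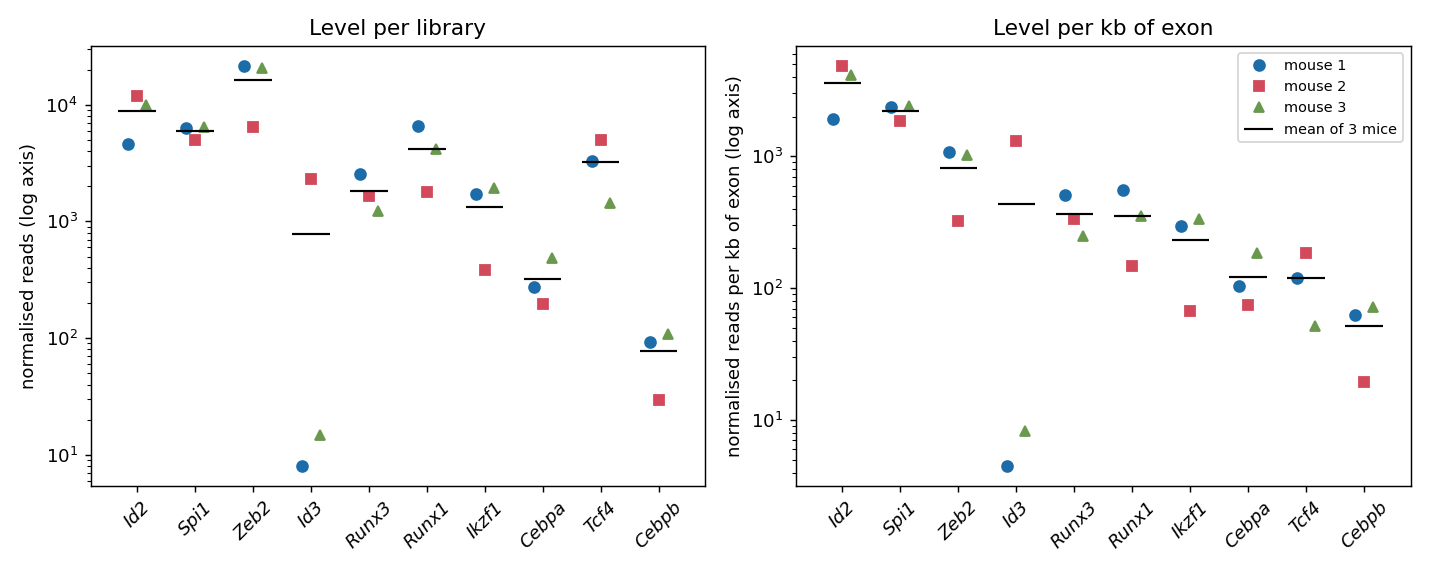
Level of each factor in each of the 3 mice (points) with the mean of the mice (bar), in normalised reads at the left and in normalised reads per kb of exon at the right, both on a log axis, ordered by the mean per kb. Spi1 lies within 1.31-fold in the 3 mice, while Id3 spans 288-fold and is high in mouse 2 alone.

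**Figure D2:**
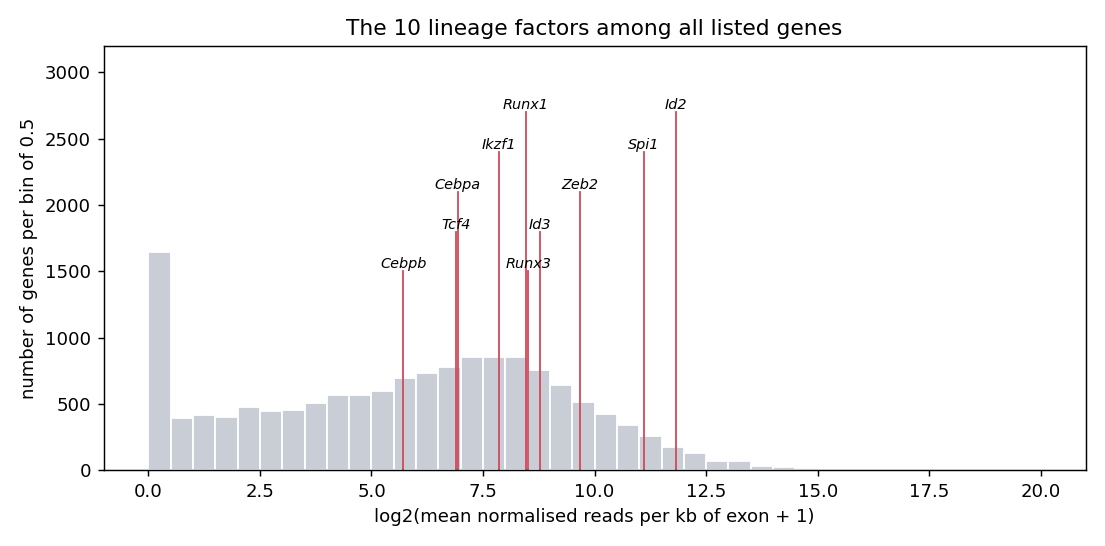
Histogram of log2(mean normalised reads per kb of exon + 1) over the listed genes, in bins of 0.5, with the 10 factors marked by lines whose height carries no value. Id2 and Spi1 lie in the upper tail, at percentiles 96.9 and 94.8, and Cebpb lies at percentile 46.1.

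Spi1 encodes PU.1, an ETS family factor and the master regulator of macrophages. Spi1 had 6315, 4964 and 6496 normalised reads in mice 1, 2 and 3. The 3 values lay close together, with a coefficient of variation of 14.1%, against a median of 51.3% over the 500 genes nearest in mean level. Of these 500 genes, 8.6% varied less. Spi1 was not alone in this: for Cebpa, Cebpb and Runx3, 9.8%, 10.8% and 12.8% of their own 500 nearest genes varied less. Spi1 stood at percentiles 92.4, 94.0 and 94.0 of the listed genes in mice 1, 2 and 3.

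Relatives and targets of PU.1 were read from fixed lists. Spic, the ETS relative known from spleen macrophages that recycle red cells, was at 7.26, 2.77 and 1887 normalised reads, high in mouse 3 alone. Of 15 known PU.1 targets, 11 reached 1000 normalised reads in every mouse and 14 reached 10. Fcgr3, an activating Fc receptor, was highest per kb at 50328 ± 6416, followed by the lysosomal protein gene Cd68 at 30784 ± 12471 and the lipopolysaccharide co-receptor gene Cd14 at 15722 ± 7426. The integrin gene Itgam was the target under 10 in a mouse, at 1021, 446 and 5.64 normalised reads.

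The C/EBP factors Cebpa and Cebpb stood lower than most of the set. Cebpa, which encodes the factor that takes progenitors into the granulocyte and monocyte branch, had 276, 197 and 483 normalised reads in mice 1, 2 and 3, from 342, 355 and 685 reads. Cebpb, which encodes a factor of monocyte survival and of inflammatory gene induction, had 93.6, 29.4 and 109 normalised reads, from 116, 53 and 154 reads. Both genes were lowest in mouse 2 and highest in mouse 3, and they stood at percentiles 53.2 and 37.0 of the listed genes by mean.

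Within each library and per kb of exon, Cebpa was above Cebpb in 3 of 3 mice, with log2 ratios of 0.74, 1.89 and 1.33 (mean 1.32 ± 0.33 SE, exact sign-flip test, two-sided p = 0.25). This p is the smallest that the sign-flip test can give with 3 libraries, so by this test no ratio between factors could reach 0.05, and the SE shows its precision. Of the relatives, Cebpd was at 81.5, 88.8 and 109 normalised reads, the gene of the fixed list whose levels lay nearest to Cebpb, with a largest difference of 1.56 on the log2(value + 1) scale. Cebpg, whose short product lacks an activation domain, was well above them at 5600.1, 4402 and 1665, and Cebpz, which is named with the family but is not a leucine zipper protein, at 598 ± 76.5.

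Promoter sequence is shown for Cebpa and Cebpb because both windows are rich in G and C. The sequences are the 250 bases before the annotated start, from RefSeq on build GRCm38.p6, in 5′ to 3′ direction of the gene, with CG dinucleotides in capitals:
Cebpa (GRCm38.p6 chr7:35119043-35119292, plus strand): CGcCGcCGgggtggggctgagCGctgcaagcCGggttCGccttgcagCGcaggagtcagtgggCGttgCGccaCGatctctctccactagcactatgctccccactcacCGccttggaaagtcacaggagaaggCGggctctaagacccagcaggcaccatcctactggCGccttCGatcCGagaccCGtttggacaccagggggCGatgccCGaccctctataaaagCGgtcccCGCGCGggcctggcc
Cebpb (GRCm38.p6 chr2:167688665-167688914, plus strand): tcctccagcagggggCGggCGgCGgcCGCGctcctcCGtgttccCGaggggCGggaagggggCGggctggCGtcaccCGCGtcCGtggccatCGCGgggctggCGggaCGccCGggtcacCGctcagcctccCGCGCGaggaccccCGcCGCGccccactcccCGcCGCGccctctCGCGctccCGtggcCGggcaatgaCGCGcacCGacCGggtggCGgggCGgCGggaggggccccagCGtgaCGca

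The Cebpa window held 22 CG dinucleotides and the Cebpb window 41, where the median over 32851 promoter windows of the same length was 6. Richness in CG was not particular to these genes. The richest windows of Ikzf1, Runx3 and Runx1 held 44, 38 and 27, and the other window of each held 1, 8 and 2. The C/EBP letters TTGCNNAA, searched on both strands, were in neither the Cebpa nor the Cebpb window and in 9.56% of all windows. Amplification of cDNA can be sensitive to G and C in the transcript, and the promoter bases lie before the annotated transcript. The longest annotated transcripts were 62.6% G and C for Cebpa and 67.2% for Cebpb, at percentiles 99.1 and 99.9 of the listed genes. Of the 3 factors highest per kb, Id2 was at 45.1%, Spi1 at 58.9% (percentile 94.9) and Zeb2 at 40.6%. Tcf4, close to Cebpa in mean level per kb, was at 40.9% (percentile 10.7). The others were Runx1 at 46.4%, Ikzf1 at 46.9%, Id3 at 55.6% and Runx3 at 55.9%. The part of base composition in these levels was not tested. In the later GENCODE annotation, 312 exon bases of Cebpb lie opposite an exon of Tmem189, which was at 267, 1602 and 28.2 normalised reads. Cebpb was lowest in mouse 2, where Tmem189 was highest, and the part of Tmem189 reads in the Cebpb values was not tested. Likewise 51 exon bases of Cebpa lie opposite the antisense gene Gm45091, at 235, 94.3 and 1.41 normalised reads. The sources used here do not state whether reads were counted by strand.

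Of the fixed C/EBP targets, 6 of 14 were analysed. The lysozyme gene Lyz2 was at 125717, 130590 and 96593 normalised reads, and Csf3r, the receptor of the granulocyte growth factor, at 19.4, 3.33 and 0. Il6, Arg1, Il10 and S100a9 were at 0 in every mouse, and for a floor of 3 reads such a 0 leaves room for 2.42, 1.66 or 2.11 normalised reads in mouse 1, 2 or 3 (counting error only). The other 8 targets, most of them granule genes of neutrophils, were not analysed here.

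Both RUNX factors were present. Runx1, the factor that starts definitive blood formation, had 6615, 1776.5 and 4210 normalised reads in mice 1, 2 and 3. Runx3, known for its part in cytotoxic T cells and in Langerhans cells, the macrophages of the epidermis, had 2552, 1668 and 1238. Runx1 was lowest in mouse 2 and spanned 3.72-fold, while Runx3 was lowest in mouse 3 and spanned 2.06-fold.

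Before division by length Runx1 lay above Runx3 in 3 of 3 mice, with log2 ratios of 1.37, 0.09 and 1.77. Per kb of exon the ratios were 0.11, -1.17 and 0.50, and their mean of -0.19 ± 0.51 SE did not set the genes apart (exact sign-flip test, p = 1.0). Annotated exons of Runx1 span 12025 bases against 5003 for Runx3, and the longest transcripts 5861 against 3884 bases, so the comparison turned on which length was used. Without mouse 2 the mean ratio per kb was 0.30. Runx2, the bone-forming relative, was at 1.61, 0 and 1.41 normalised reads. Cbfb, whose product pairs with each RUNX protein, was at 660, 6396 and 5133, lowest in mouse 1, where Runx1 was highest.

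The RUNX genes have an upstream and a downstream promoter. A comparison of the first Runx1 window with the first Runx3 window, both of 300 bases and including 50 bases after the start, gave a longest shared run of 18 bases. It is shown because it carries the RUNX core ACCACA, in capitals, 2 times in tandem:
Runx1 (GRCm38.p6 chr16:92826031-92826048, minus strand): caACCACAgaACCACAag
Runx3 (GRCm38.p6 chr4:135120509-135120526, plus strand): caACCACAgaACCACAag

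In Runx1 the run began 27 bases after the annotated start, and in Runx3 it lay upstream, its first base at position -136. Among all 32851 windows, searched on both strands, the 18 bases were found in 4, belonging to Runx1, Runx2, Runx3 and the symbol Gm16225. The core ACCACA alone, on either strand, was in 14% of all windows over the 250 upstream bases. The run thus lies in windows of Runx1 and Runx3, both above 1000 normalised reads in every mouse, and of Runx2, near 0. A match of letters says nothing of binding in these cells.

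Zeb2 had the most normalised reads of the 10 genes in mice 1 and 3, and Id2 in mouse 2. Zeb2 encodes an E-box repressor that tissue macrophages need to keep their identity and plasmacytoid dendritic cells need to form, and it had 21507, 6489 and 20457 normalised reads in mice 1, 2 and 3. Mice 1 and 3 were close, and mouse 2 was lower, with 3.31-fold between highest and lowest. The relative Zeb1 was at 331, 1969 and 5.64, highest in mouse 2, where Zeb2 was lowest. In the later annotation, 653 exon bases of Zeb2 lie opposite the antisense gene Zeb2os, which was listed at 51.6, 102 and 627 normalised reads, and the values of the pair are uncertain to that extent.

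Id2 was the highest factor per kb. Id2 encodes an inhibitor of E proteins needed by cross-presenting dendritic cells and innate lymphoid cells, and it had 4641, 11797 and 10015 normalised reads in mice 1, 2 and 3. It was lowest in mouse 1, with 2.54-fold between highest and lowest mouse. Id2 was above Spi1 per kb in 2 of 3 mice, mouse 1 being the exception, so the first place in the order was not settled by these libraries.

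Id3 encodes the other ID protein of the set, known in tissue macrophages from Kupffer cells of the liver. Id3 was at 8.06, 2320.4 and 14.8 normalised reads in mice 1, 2 and 3, from 10, 4181 and 21 reads. Mouse 2 was 288-fold above mouse 1, and without mouse 2 the mean was 11.4. The coefficient of variation was 171%, and 91.0% of the 500 genes nearest in mean level varied less. Of 11636 genes with a mean of 10 or more, 4.69% were, as Id3 was, at least 100-fold higher in mouse 2 than in either other mouse on the log2(value + 1) scale, a limit set after seeing the data.

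The gene of the fixed list nearest to Id3 was Klf4, at 2.42, 487 and 2.11, with a largest difference of 2.34 on the log2(value + 1) scale over 3 libraries. The kidney epithelium markers Cdh16 (106, 2889.8 and 68.4) and Lrp2 (1697, 8594 and 122) were also highest in mouse 2. Their part in the Id3 value was not tested. The endothelial markers Cdh5 (0, 25.0 and 0 normalised reads) and Emcn (71.8, 99.3 and 38.1) were also highest in mouse 2. Kdr (453, 7.77 and 1345) and Pecam1 (4.84, 0.555 and 0.705) were not, and the endothelial marker sum was lowest in mouse 2. The part of endothelial cells in the Id3 value was likewise not tested.

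Within a library and per kb, Id2 exceeded Id3 in 3 of 3 mice, by log2 ratios of 8.56, 1.90 and 8.86 (mean 6.44 ± 2.27 SE, exact sign-flip test, p = 0.25). Without mouse 2 the mean ratio was 8.71. The relatives Id1 and Id4 were at 0 to 0.555 normalised reads in all mice, so that Id2 was the ID gene above 1000 normalised reads in every library.

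Promoter sequence is shown for Id2 and Id3, the paralogs with the widest ratio. It covers the 250 bases before the annotated start, from RefSeq on GRCm38.p6, 5′ to 3′, with the CCAAT box (CCAAT on either strand) and the ETS letters GAGGAAG on either strand in capitals:
Id2 (GRCm38.p6 chr12:25096093-25096342, minus strand): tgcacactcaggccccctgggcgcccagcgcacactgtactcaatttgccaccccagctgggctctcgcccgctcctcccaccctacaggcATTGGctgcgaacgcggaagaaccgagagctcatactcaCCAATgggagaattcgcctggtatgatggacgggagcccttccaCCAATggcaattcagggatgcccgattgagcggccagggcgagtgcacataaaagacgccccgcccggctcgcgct
Id3 (GRCm38.p6 chr4:136143572-136143821, plus strand): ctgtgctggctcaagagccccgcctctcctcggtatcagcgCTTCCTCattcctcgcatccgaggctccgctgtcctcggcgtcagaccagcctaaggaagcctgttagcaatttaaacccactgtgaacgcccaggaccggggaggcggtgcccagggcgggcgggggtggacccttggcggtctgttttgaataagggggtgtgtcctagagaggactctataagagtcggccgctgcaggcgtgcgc

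The Id2 window held 3 CCAAT matches and the Id3 window 0, where 33.8% of all windows held at least 1. The letters GAGGAAG, a core bound by PU.1 and other ETS factors, had 0 matches in the Id2 window and 1 in the Id3 window, where 10.6% of all windows held it. Id2 and Id3 windows alike had 18 CG dinucleotides and were 62.8% G and C, while the longest transcripts were 45.1% G and C for Id2 and 55.6% for Id3.

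Tcf4 encodes the E protein E2-2, the factor that plasmacytoid dendritic cells depend on. Tcf4 had 3297, 5029 and 1426 normalised reads in mice 1, 2 and 3, highest in mouse 2 and spanning 3.53-fold. Its many annotated exons add up to 27382 bases against 8577 for the longest transcript, which lowers its level per kb. The other E protein genes differed in level: Tcf12 was at 1181, 3558 and 3300 normalised reads, and Tcf3, which encodes E2A, at 4.84, 8.88 and 2.82.

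Of the plasmacytoid dendritic cell markers other than Tcf4, 3 of 6 were analysed. Bst2, which interferon induces in many cells, was at 1298, 2589.6 and 944 normalised reads, and Klk1, also a gene of kidney tubules, at 156, 3798 and 52.2. Cox6a2 was at 0 in every mouse. Both detected markers were highest in mouse 2, as Tcf4 was, and their part in the Tcf4 level was not tested.

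The balance of ID2, ZEB2 and E2-2 was read as ratios per kb within a library. Id2 exceeded Tcf4 by log2 ratios of 3.98, 4.72 and 6.30 in mice 1, 2 and 3 (mean 5.001 ± 0.68 SE, exact sign-flip test, p = 0.25). This mean was 1.51 without division by length and 3.63 per kb of the longest transcript. Zeb2 exceeded Tcf4 by 3.16, 0.83 and 4.30 (mean 2.76 ± 1.02 SE, exact sign-flip test, p = 0.25). Zeb2 lay below Id2, at -0.82, -3.89 and -2.002 (mean -2.24 ± 0.90 SE, exact sign-flip test, p = 0.25). Without division by length, Zeb2 lay above Id2 in mice 1 and 3, at 2.21 and 1.03, and below it in mouse 2, at -0.86. The direction per kb thus rests on division by length, with exons of 19942 bases for Zeb2 and 2438 for Id2. Per kb of the longest transcript, of 9124 and 1969 bases, the mean ratio was -1.42.

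Ikzf1 encodes Ikaros, a zinc finger factor best known from lymphocytes that is also used in myeloid cells. Ikzf1 had 1721, 385 and 1918 normalised reads in mice 1, 2 and 3, low in mouse 2 and spanning 4.98-fold. Of its relatives, Ikzf2 (Helios) was at 1740.4, 42.2 and 2.82, high in mouse 1 alone, and Ikzf5 (Pegasus) at 12.9, 443 and 1185. Ikzf1 rested on 2134, 694 and 2721 reads in the 3 libraries.

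PU.1 was set against its lineage partners in the same way. Spi1 exceeded Cebpa by log2 ratios of 4.48, 4.62 and 3.72 (mean 4.27 ± 0.28 SE), Runx1 by 2.09, 3.64 and 2.78 (mean 2.84 ± 0.45 SE) and Ikzf1 by 2.98, 4.78 and 2.86 (mean 3.54 ± 0.62 SE), all per kb (exact sign-flip test, p = 0.25 for each). Spi1 stood above each partner in 3 of 3 mice. Without division by length, Spi1 and Runx1 were nearly level in mouse 1, at a log2 ratio of -0.07. Of the 9 pairs compared in all, 8 had the same direction per kb in 3 of 3 mice, and Runx1/Runx3 did not.

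**Figure D3:**
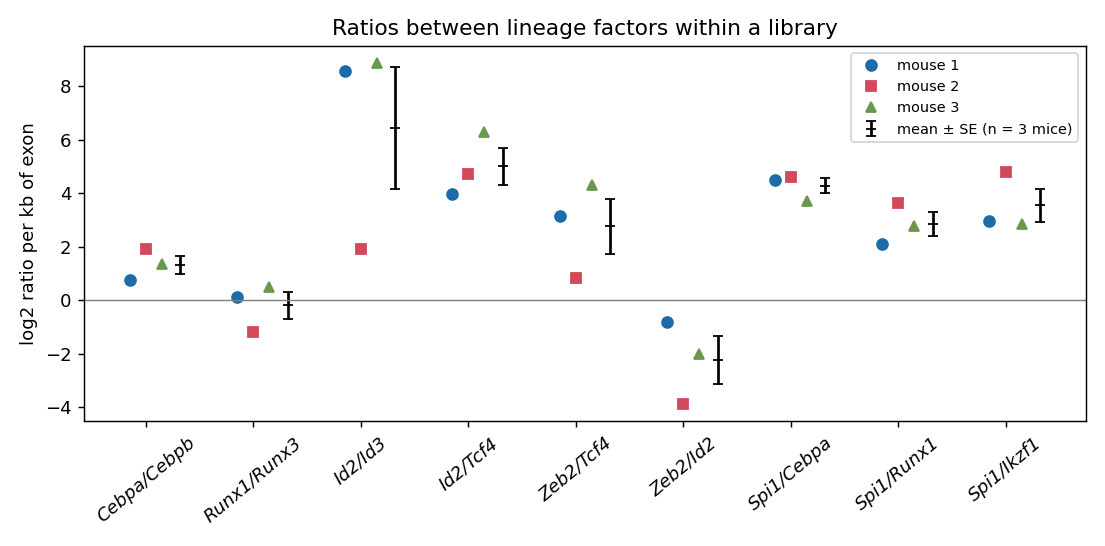
Log2 ratio per kb of exon between pairs of factors within each of the 3 libraries (points), with the mean ± SE at the right of each pair. The Id2/Id3 ratio is near 8.56 and 8.86 in mice 1 and 3 and 1.90 in mouse 2, while the Runx1/Runx3 points lie on both sides of 0.

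The factors did not move together over the mice. Of the 10, 6 were lowest in mouse 2 (Spi1, Cebpa, Cebpb, Runx1, Zeb2 and Ikzf1), where 29.9% of genes with a mean of 10 or more were lowest in that mouse. Another 3 were highest in mouse 2 (Id2, Id3 and Tcf4), which is close to the share of 34% among genes with a mean of 10 or more. Of the macrophage markers, 6 of 10 were lowest in mouse 2, and of the PU.1 targets 10 of 15. Both lists hold Csf1r, Cd68, Cd14, Fcgr1 and Itgam, so these counts overlap. For 8 of 10 factors, Zeb2 and Id3 being the exceptions, the coefficient of variation was below the median of the 500 genes nearest in level. By definition, as many of the nearest genes lie below such a median as above it. Runx1, Id2 and Tcf4 were only slightly below, at 57.6%, 42.2% and 55.4% against medians of 58.8%, 45.9% and 62.6%. With a library per mouse, differences between mice have no replicate of their own, and their link to the epithelial marker level was not tested.

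**Figure D4:**
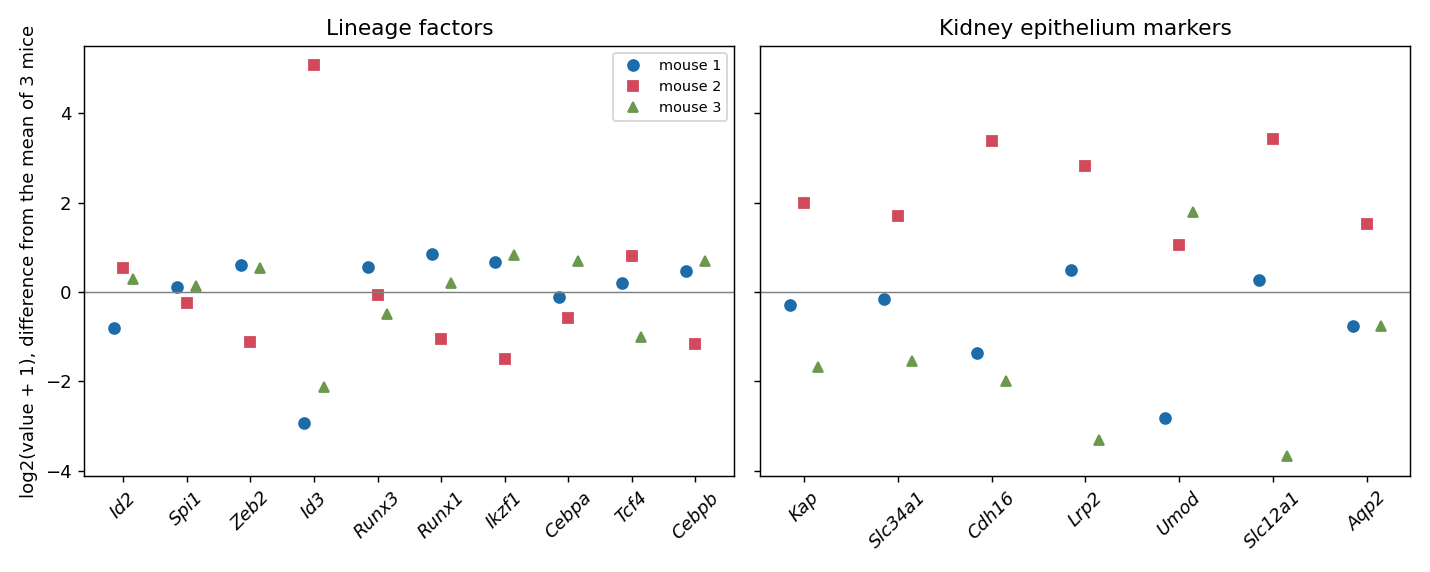
Difference of log2(value + 1) from the mean of the 3 mice, for the 10 factors at the left and for the 7 kidney epithelium markers at the right, with a point per mouse. Mouse 2 is the highest for 6 of 7 epithelial markers and for Id2, Id3 and Tcf4, and the lowest for 6 of 10 factors.

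The wider list of lineage regulators gave the setting. Of 73 genes on the list, 59 were analysed, of which 16 reached 1000 normalised reads in every mouse, 33 reached 10 and 4 were at 0 throughout. Among the highest per kb were Nfe2l2, the regulator of the oxidative stress response (5472 ± 2899), the macrophage factor Maf (4322 ± 1324), Klf6 (2132 ± 790.1), the stress factor Ddit3 (2099.8 ± 1481), Mef2c (1529 ± 481), Lmo2 (1279 ± 747) and Cbfb (1168 ± 866). Id2 and Spi1 thus stood in the range of Maf and Klf6. The factors detected at the lowest levels were Bach2, Runx2, Id1 and Erg, each with a mean of at most 1.01 normalised reads, and Id4, Nfil3, Tal1 and Eomes were at 0 in every mouse. Zbtb46, a factor of conventional dendritic cells, was at 0, 0 and 16.2 normalised reads, and Flt3, their growth factor receptor, at 4.84, 0 and 0. Clec9a, a receptor of cross-presenting dendritic cells, was at 3421, 1330.3 and 1462. The other conventional dendritic cell markers analysed were mixed. Xcr1 was at 534, 2.77 and 407, Dpp4 at 38.7, 751 and 2228, and Cd209a and Ccr7 at 0 in every mouse.

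Likeness in level was measured as the largest absolute difference in log2(value + 1) over the 3 libraries, and no correlation was computed over so few. Cebpg lay nearest to Tcf4 (0.764), Lmo2 to Runx1 (0.888), Klf6 to Zeb2 (0.933), Ets2 to Cebpa (0.984), Fli1 to Runx3 (1.0), while Gabpa lay nearest to Ikzf1.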

How the data were processed

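The deposited file is a table of 14811 genes with a column for each of 3 libraries of sorted kidney macrophages. The authors deposited a signal, that is read counts per gene divided by a size factor. The submitters' processing notes name HTSeq 0.5.4, DESeq 1.18.0 and build mm9. Aligner, gene annotation and strand setting: not given in the sources used here. Per the labels, cDNA was amplified with SMART-seq v4, so reads are not molecules and floors cover counting error only.

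The lowest deposited value was 1 in every library, and 1 was subtracted. After this 100% of values, within 0.05 of a step, were multiples of the library's own step, which gave the reads. The step, the value of a read, was 0.806 in mouse 1, 0.555 in mouse 2 and 0.705 in mouse 3. Exon and transcript lengths came from GENCODE M21, by gene identifier (99.6% of genes), and belong to another build than mm9. Promoter windows came from RefSeq on GRCm38.p6 by symbol, for 8 of 10 factors (not Spi1 and Tcf4). Ratios used a pseudocount of 1 and an exact two-sided sign-flip test over libraries. The mean log2 ratio before division by length was tried on simulated data, and the sign-flip test was not. The simulation held counting noise alone, without spread between mice, at levels of genes with 10 or more in every mouse. No count model was fitted, since there is a single group. The factors, pairs and lists were chosen with earlier results of these data known. Named were all 10 factors, their relatives, the 8 highest and 4 lowest detected of a list of other lineage factors and those at 0, and the 3 highest and the undetected known targets. Results for a gene of that list are not reported here. Others, such as Itgam, Cdh16, Lrp2 and Clec9a, were named after their values were seen. The labels name the samples as separate mice. Python 3.11.15, numpy 2.4.6, pandas 2.3.3 and matplotlib 3.10.9 were used.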

Additional observations from a re-analysis of the deposited data

How the results depend on the processing

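Alternatives were run for scaling, pseudocount, length and each mouse left out. The number of factors at 1000 or more in every mouse was 3 with a minimum of 2000, and 6 to 7 with a mouse left out. The number at 10 or more was 9 to 10 with a mouse left out. Without division by length the mean log2 ratio was 2.13 for Cebpa/Cebpb, 1.08 for Runx1/Runx3, 1.51 for Id2/Tcf4, 0.79 for Zeb2/Id2, 0.68 for Spi1/Runx1 and 2.44 for Spi1/Ikzf1, so of the 9 pairs Runx1/Runx3 and Zeb2/Id2 changed sign, as did Spi1/Zeb2 and Cebpa/Tcf4 among neighbours in the order. Per kb of the longest transcript Id2/Tcf4 was 3.63, and Runx1/Runx3, at 0.48, also changed sign. With a mouse left out, the mean ratio ranged from 1.04 to 1.61 for Cebpa/Cebpb, from -0.53 to 0.30 for Runx1/Runx3, from 5.23 to 8.71 for Id2/Id3, from 4.35 to 5.51 for Id2/Tcf4, from 1.99 to 3.73 for Zeb2/Tcf4, from -2.95 to -1.41 for Zeb2/Id2, from 4.10 to 4.55 for Spi1/Cebpa, from 2.44 to 3.21 for Spi1/Runx1 and from 2.92 to 3.88 for Spi1/Ikzf1. The other alternatives for the ratios moved no value by more than the spread between mice. Levels of single factors under the scalings tried, brought to the deposited overall total, moved by less than the SD between mice in 30 of 30 cases. With a mouse left out the mean of Id3 was 11.4 without mouse 2. Per kb of exon the percentile was 75.8 for Runx1, 86.9 for Zeb2 and 57.9 for Tcf4, below that by reads. No paired analysis was possible because there is a single group. Genes with few reads, such as Cebpb with 53 in mouse 2, are the least certain.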
